A study of Mus musculus with 6 samples.

Results

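The genes described here build and feed the DNA replication fork: 34 genes of fork proteins, nucleotide synthesis enzymes, chromatin factors and S phase regulators, taken by symbol from a table of 22063 genes. All 34 were found, and 32 had enough reads to be tested. Dscc1 and Orc1 did not pass the filter on low counts. The genes were measured by RNA sequencing in heart muscle cells of mice given α-ketoglutarate (AKG, an intermediate of the tricarboxylic acid cycle) or saline, in a study of heart muscle cell proliferation. Both groups were wild-type (WT) mice at postnatal day 21 (P21), injected daily for 2 weeks. The 3 AKG libraries came from animals given 300 mg per kg per day, and the 3 Control libraries from animals given PBS. Cells were taken from the heart by the Langendorff method, in which enzyme is perfused through the coronary vessels, and RNA was extracted with Trizol. The sources used here do not give the strain, the age at the end of the injections or the number of mice per library, so p-values measure only the spread between these libraries, which may be technical.

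A replication fork is opened by a helicase made of the Mcm2 to Mcm7 ring, Cdc45 and the GINS proteins. DNA polymerase α with its primase lays down short primers, polymerases ε and δ extend them, and the ring-shaped clamp Pcna, loaded onto DNA by replication factor C, keeps the polymerases in place. Replication protein A coats the exposed single strands, Fen1 and Lig1 join the lagging-strand pieces, and ribonucleotide reductase with the thymidylate enzymes supplies the building blocks. Most of these genes are switched on together at the entry to S phase by E2F transcription factors, and in the heart their transcripts fall as heart muscle cells leave the cell cycle after birth.

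The letters that E2F factors are known to bind stand close to the start sites of many of these genes. In RefSeq promoter entries on GRCm38.p6, which run from 250 bases before to 50 bases after the start, 27 of the 34 genes were matched. Either of 2 core motifs, TTCCCGC or TTGGCGC on either strand, was present in 14 of the 27 (51.9%), against 7.79% of 27025 genes in the same table. The following sites are shown because they belong to genes whose levels moved apart in the results and to relatives of those genes in the same complex or step. Each is printed on the strand of its gene, with the core, or its reverse complement, in capitals.
Rfc3 (chr5:151651192-151651218, minus strand, core from base 1 of the transcript): tttcgcgctcGCGGGAAaactctactg
Rfc4 (chr16:23127703-23127729, minus strand, core from base 12 of the transcript): ccgttctgtgGCGGGAAccgcggtgcc
Rpa3 (chr6:8259154-8259180, minus strand, core from 29 bases before the start): tctgcccgggTTGGCGCggccgcccgc
Rpa2 (chr4:132768313-132768339, plus strand, core from 37 bases before the start): ctgtcccttcGCGGGAAggagtttgtg
Gins3 (chr8:95633508-95633534, plus strand, core from 41 bases before the start): cgagtgcggcGCGGGAAagcgagtttg
Rrm1 (chr7:102441618-102441644, plus strand, core from 67 bases before the start): ggagaactcgTTCCCGCcaggtccgct
Prim1 (chr10:128015190-128015216, plus strand, core from 15 bases before the start): gcctgtcttgTTCCCGCcaattctcgt

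These matches are a description of letters and not of bound sites. Of the genes called lower in the results below, 6 had an entry, and 2 of these held a core (Gins3 and Rpa3). Of the genes without a call, 18 had an entry, and 10 of these held a core. A link between a core and a change in level was not tested. CCAAT, the box bound by NF-Y, was present on either strand in 16 of 27 (59.3%, against 41.1% of all genes). Some of these boxes share bases with an E2F core, as in the Prim1 site printed above. TTTGAA, the CHR element of many genes of G2 and M phase, was present in 2 of 27 (7.41%, against 20.2% of all genes), in Gins3 and Fen1.

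Total counts were 16241120 to 17797368 in the Control libraries and 14402876 to 15315236 in the AKG libraries. The labelled cell type was checked on 10 heart muscle markers such as Myh6 and Tnnt2: all were detected, and 9 of 10 were lower after AKG, with a summed level of 73450 to 79851 CPM in Control and 34833 to 38659 in AKG. The scaling between libraries matters here. After the trimmed mean of M values (TMM) scaling, the median log2 fold change of all 13117 tested genes was 0.00. With total counts as the scaling it was 0.45. How much the fall of these markers adds to that gap was not tested. CPM here are counts over the TMM-scaled library total. Of all tested genes 25.0% were higher and 25.2% lower, and the counts of markers stand beside these shares. For other cells, 4 of 10 macrophage markers were lower (summed CPM 137 to 213 in Control, 90.6 to 117 in AKG). Without the TMM factors these macrophage sums overlap between the groups. Lower too were 7 of 10 smooth muscle and pericyte markers. Of 10 endothelial markers 3 were higher and 3 lower (30% each), near the shares of all genes. All 5 of 5 tested neutrophil markers were higher, at a summed 2.17 to 2.72 against 8.09 to 15.1 CPM, with Ly6g at 0 in all libraries. Of 4 tested lymphocyte markers 3 were lower, of 10 fibroblast markers 2 were higher and 4 lower, and of 7 tested erythroid markers 1 was higher. Summed atrial markers were 101 to 163 CPM in Control and 882, 476 and 962 CPM in AKG replicates 1 to 3. Most of each sum was Nppa, at 85.7 to 139 CPM in Control and 500, 454 and 720 CPM in AKG. Myl7 was at 0.810 to 4.15 CPM in Control and 138, 1.12 and 88.0 CPM in AKG. Sln, Myl4 and Bmp10 were likewise near Control levels in AKG replicate 2 only, so that replicates 1 and 3 stood apart. Gja5 and Mybphl were somewhat above the Controls in AKG replicate 2. The part of these cells in the results below was not tested, and in bulk RNA fewer cells of a type and less RNA per cell cannot be told apart.

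Among the 34 genes, 3 of the clamp loader rose after AKG while the clamp itself fell, and the genes of nucleotide supply and of the polymerases were mostly without a call. Of the 32 tested genes, 3 rose (Rfc1, Rfc2 and Rfc3) and 7 fell (Gins3, Pole, Pcna, Rpa3, Fen1, Dut and Slbp) by edgeR's quasi-likelihood test at an adjusted p under 0.05. The 3 that rose are 9.38% of the tested genes, against 25.0% of all 13117 genes, and the 7 that fell are 21.9%, against 25.2%. Thus the share that fell was near the background of this comparison and the share that rose was below it. The median log2 fold change of the 32 was -0.14, and that of all tested genes was 0.00.

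No called gene of the 32 reached a 2-fold change, a size that 10.8% of all tested genes passed together with the test. The log2 fold changes ran from -0.92 for Fen1 to 0.72 for Rfc1. In all 10 called genes the 3 AKG libraries did not overlap the 3 Controls. The test that picked these genes used the same values, so the lack of overlap is not separate support. Over the 32 genes the AKG libraries lay wholly above the Controls in 4 (12.5%, against 29.4% of all genes) and wholly below them in 13 (40.6%, against 29.9%).

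**Figure D1:**
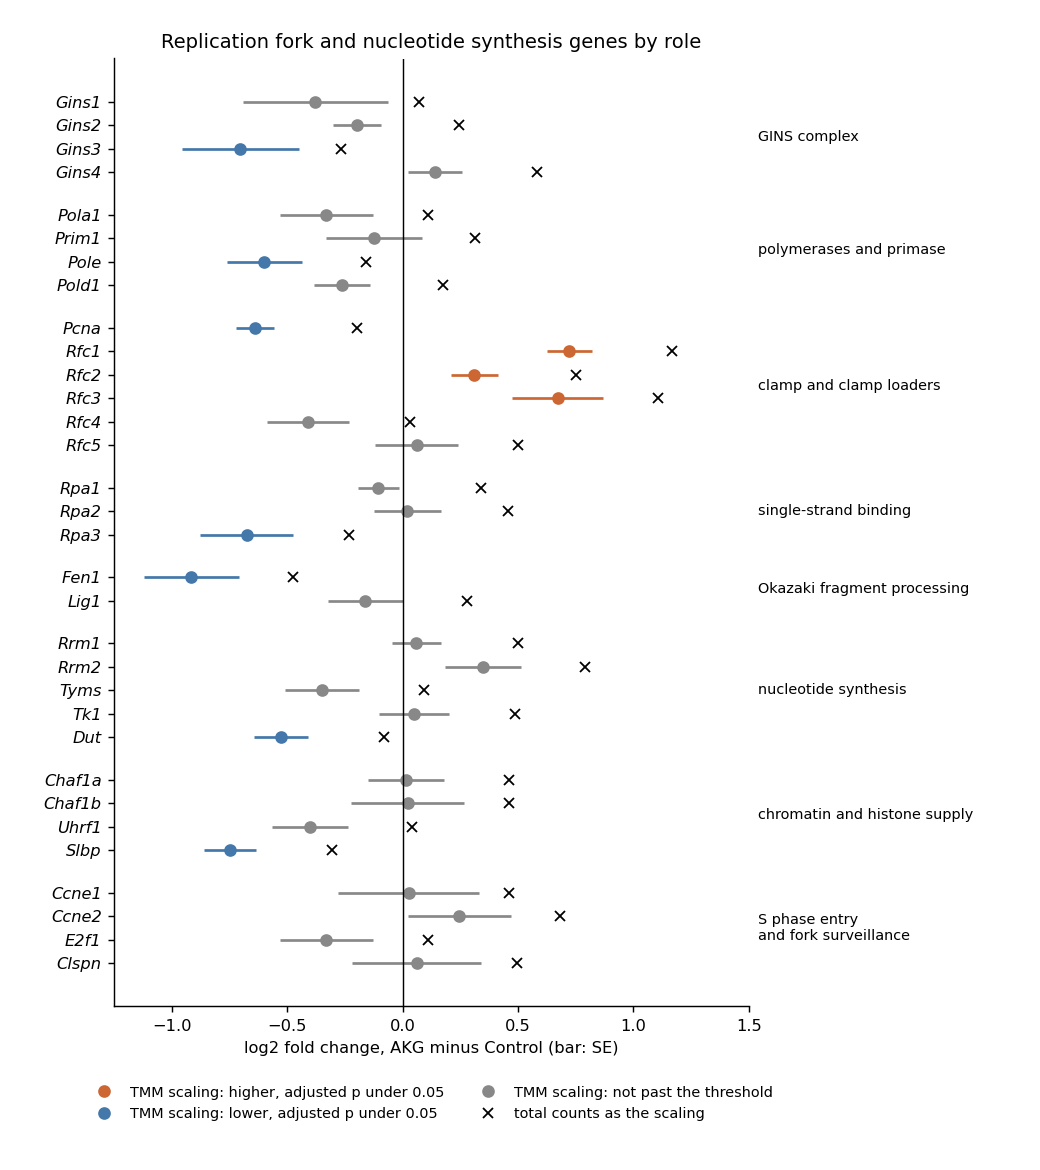
Log2 fold change of AKG over Control (horizontal axis) for the 32 tested genes, with bars of 1 standard error on TMM scaling and crosses for total counts as the library scale, ordered by role. The 3 genes that rose are all clamp loader genes, and the 7 that fell are spread over 7 roles, from Fen1 at -0.92 to Dut at -0.53.

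The direction of the 10 calls was kept under each of the 17 alternative settings that gave a value for the gene, but the number of calls depends on the scaling. When libraries were scaled by total counts, 12 genes rose and 1 fell, against 56.7% and 9.12% of all genes, and the median was 0.29, against 0.45 for all genes. Slbp was then the gene that still fell. Its fall and the rise of Rfc1 were called in all 17 alternatives. With AKG replicate 2 alone, the AKG library with the least atrial RNA, 2 genes rose (Rfc1 and Rfc3) and 4 fell (Pcna, Fen1, Dut and Slbp), against 20.1% and 20.7% of all genes.

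In replication factor C, 3 subunits rose and the other subunits had no call. Rfc1, its large subunit, was at 26.5, 24.5 and 23.0 CPM in the Control libraries and at 36.3, 42.8 and 43.2 CPM in the AKG libraries. Each AKG library was above each Control, and the log2 fold change was 0.72 ± 0.10 (SE; edgeR quasi-likelihood adjusted p = 4.3e-05).

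Rfc3, a small subunit of the loader, was at 4.49, 4.47 and 3.31 CPM in Control and at 6.69, 7.58 and 5.38 CPM in AKG. Again the groups did not overlap, although Rfc3 had 45 to 122 counts per library. Its log2 fold change was 0.67 ± 0.20 (SE; edgeR adjusted p = 0.0123). The call was lost without Control replicate 3 (adjusted p = 0.0562) and without AKG replicate 2 (adjusted p = 0.0540).

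Rfc2, another small subunit, was at 18.8, 19.9 and 17.0 CPM in Control and at 24.1, 23.2 and 21.9 CPM in AKG. The groups were apart by a small margin, with a log2 fold change of 0.31 ± 0.10 (SE; edgeR adjusted p = 0.0192). Without Control replicate 1 the adjusted p was 0.0511, without Control replicate 3 it was 0.0892, without AKG replicate 1 it was 0.0524, and with AKG replicate 2 alone it was 0.0591.

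Rfc4 was at 4.97, 5.65 and 5.89 CPM in Control and at 4.16, 3.91 and 4.33 CPM in AKG. All AKG libraries of Rfc4 were below all Controls on this scaling, with a log2 fold change of -0.41 ± 0.18 (SE; edgeR adjusted p = 0.0706). Rfc5 was at 8.30, 7.33 and 5.23 CPM in Control and at 7.48, 7.64 and 6.71 CPM in AKG, with overlapping groups and a log2 fold change of 0.06. Dscc1, which belongs to an alternative loader used in sister chromatid cohesion, had 11, 6 and 1 counts in Control and 17, 6 and 9 in AKG.

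Ratios of counts inside a library do not depend on how libraries are scaled to each other, and the pairs given here were picked after the values were seen, so they carry no test. The ratio of Rfc1 to Rfc4 was 5.34, 4.34 and 3.91 in Control and 8.73, 10.9 and 9.97 in AKG. Its mean was 4.53 ± 0.73 in Control and 9.88 ± 1.11 in AKG (SD, n = 3). Rfc3 to Rfc4 was 0.753 ± 0.174 in Control and 1.60 ± 0.35 in AKG, and Rfc2 to Rfc4 was 3.40 ± 0.46 and 5.60 ± 0.48. In these 3 ratios each AKG library lay above each Control, whereas the ratio of Rfc5 to Rfc4 overlapped between the groups (1.29 ± 0.39 and 1.77 ± 0.20).

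Pcna, the clamp that this complex loads, had the smallest adjusted p of the genes that fell. It was at 40.3, 43.3 and 40.9 CPM in Control and at 26.0, 25.9 and 27.9 CPM in AKG. The libraries of a group differed by little and the groups were far apart, with a log2 fold change of -0.64 ± 0.08 (SE; edgeR adjusted p = 3.2e-05). Scaled by total counts the value was -0.20 and the call was lost (edgeR adjusted p = 0.117). The ratio of Rfc1 to Pcna was 0.596 ± 0.054 in Control and 1.53 ± 0.13 in AKG (SD, n = 3).

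**Figure D2:**
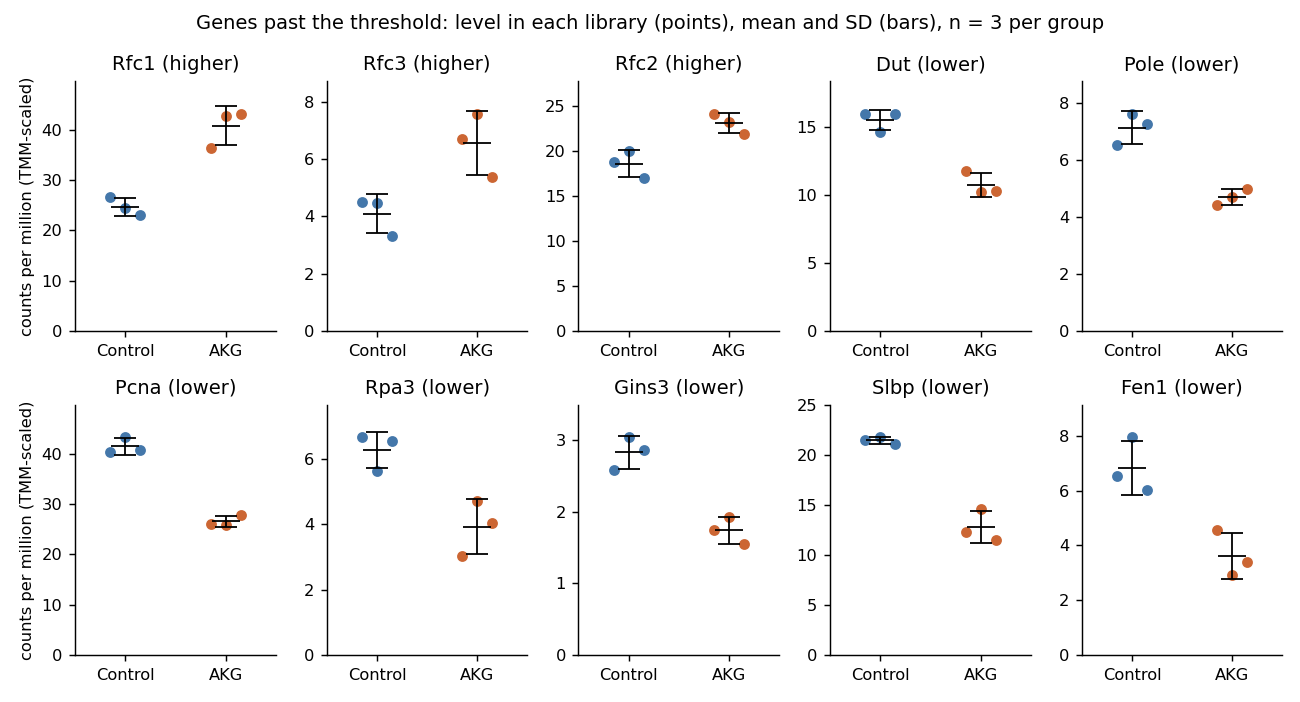
CPM in each library (points) with the group mean and SD (bars, n = 3) for the 10 called genes, Control beside AKG, each panel with its own axis from 0. In each panel the 3 AKG points lie wholly above (Rfc1, Rfc2 and Rfc3) or wholly below the 3 Control points.

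The GINS complex, which joins the Mcm ring and Cdc45 in the helicase, had 1 of 4 genes past the test. Gins3 was at 2.59, 3.04 and 2.87 CPM in Control and at 1.74, 1.93 and 1.55 CPM in AKG. Although the groups did not overlap, Gins3 had 28 to 49 counts per library, and its fall of 0.70 ± 0.25 on the log2 scale (SE; edgeR adjusted p = 0.0324) was called in 6 of the 15 alternatives in which it was tested. The DESeq2 adjusted p was 0.0986.

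Gins2 was at 16.1, 18.0 and 18.0 CPM in Control and at 15.2, 15.3 and 14.8 CPM in AKG. Gins4 was at 10.6, 11.2 and 10.6 CPM in Control and at 12.3, 11.4 and 12.2 CPM in AKG. Neither passed the test, yet the groups were apart in both, below the Controls for Gins2 (log2 fold change -0.20) and above them for Gins4 (0.14). Gins1 ranged from 1.06 to 2.11 CPM over the 6 libraries, with overlapping groups. The ratio of Gins4 to Gins3 counts was 3.83 ± 0.24 in Control and 6.92 ± 0.96 in AKG (SD, n = 3). It is not scaled by transcript length, rests on the low counts of Gins3 and says nothing of protein numbers.

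Of the polymerase genes, Pole fell. Pole, the catalytic subunit of the leading-strand polymerase ε, was at 6.53, 7.64 and 7.29 CPM in Control and at 4.44, 4.72 and 4.99 CPM in AKG, a fall of 0.60 ± 0.16 on the log2 scale (SE; edgeR adjusted p = 0.00765). The groups did not overlap. Scaled by total counts the value was -0.16 (edgeR adjusted p = 0.461), and with AKG replicate 2 alone the adjusted p was 0.0550.

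The other polymerase genes did not pass the test. Pold1, the catalytic subunit of polymerase δ, was at 13.4, 15.3 and 13.0 CPM in Control and at 10.8, 12.3 and 11.7 CPM in AKG, with the groups apart (log2 fold change -0.26, edgeR adjusted p = 0.0822). Pola1, of polymerase α, was at 4.27 to 5.71 CPM in Control and at 3.29 to 4.33 CPM in AKG. Prim1, the primase that makes the RNA primers, was at 3.53 to 4.97 CPM in Control and at 3.44 to 3.99 CPM in AKG. Both of the last overlapped between the groups, with log2 fold changes of -0.33 and -0.12.

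In replication protein A, the single-strand binding complex, the smallest subunit fell. Rpa3 was at 6.67, 5.65 and 6.55 CPM in Control and at 3.04, 4.72 and 4.05 CPM in AKG. Its libraries did not overlap between the groups, and its log2 fold change was -0.68 ± 0.20 (SE; edgeR adjusted p = 0.0121). With AKG replicate 2 alone, the highest of the 3 AKG libraries, the value was -0.41 (edgeR adjusted p = 0.213), and scaled by total counts it was -0.23 (adjusted p = 0.326).

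Rpa1, the large subunit that holds the main DNA-binding folds, was at 44.2, 44.4 and 42.0 CPM in Control and at 36.7, 39.3 and 45.3 CPM in AKG. The groups overlapped because AKG replicate 3 was the highest library of all. Its log2 fold change was -0.11 (edgeR adjusted p = 0.355) on TMM scaling, but 0.34 with a call (adjusted p = 0.0144) on total counts. Rpa2 lay between 8.02 and 9.88 CPM in all 6 libraries, with a log2 fold change of 0.02. The ratio of Rpa3 to Rpa1 was 0.145 ± 0.015 in Control and 0.0974 ± 0.0199 in AKG (SD, n = 3), with no overlap.

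Fen1, the nuclease that trims the flaps of lagging-strand pieces, had the lowest log2 fold change of the 32 genes. Its levels were 6.53, 7.95 and 6.04 CPM in Control and 4.55, 2.92 and 3.38 CPM in AKG. The highest AKG library was below the lowest Control, with a log2 fold change of -0.92 ± 0.21 (SE; edgeR adjusted p = 0.00227), and scaled by total counts the value was -0.48 (adjusted p = 0.0705). Lig1, the ligase that seals the same pieces, was at 7.89, 9.63 and 9.06 CPM in Control and at 9.61, 7.14 and 6.99 CPM in AKG, with overlapping groups and a log2 fold change of -0.16. The ratio of Fen1 to Lig1 was 0.773 ± 0.092 in Control and 0.456 ± 0.041 in AKG (SD, n = 3).

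For Fen1 the opposite strand needs care. In the GENCODE M21 annotation, 2039 of its 2422 exon bases are overlapped by exons on the other strand, 1909 of them by Gm10143 and 130 by Tmem258, a gene that itself fell by 1.01 on the log2 scale (edgeR adjusted p = 4.64e-06). The sources used here do not say whether counting used strand, so reads of the partners cannot be told apart from those of Fen1. The same holds for Gins2 (2758 of 4097 exon bases, with Gse1) and Chaf1a (4648 of 8854 exon bases, with Ubxn6, which rose by 0.71 on the log2 scale). Over shorter stretches it holds for Rfc2 (952 of 6303 exon bases, with Lat2) and Slbp (474 of 6076 exon bases, with Gm10459). It also holds for Rfc4 (194 of 1533 exon bases, with Eif4a2) and Rfc5 (499 of 4669 exon bases, with Wsb2). Both partners were abundant: Eif4a2 had a mean of 260 CPM in Control and 269 in AKG, and Wsb2 67.0 and 72.9. The ratios to Rfc4 given above carry this limit. Pole, Dscc1, Lig1, Tk1, Ccne2 and Orc1 share shorter stretches too. For Pcna and Tyms, processed pseudogenes are annotated in the same release (Pcna-ps1, Pcna-ps2 and Tyms-ps), and the authors' counting could split reads with them. Neither these names nor Gm10143 appear as a symbol in the authors' deposited table.

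Among the nucleotide synthesis genes, Dut fell and the others had no call. Dut, the enzyme that removes dUTP so that uracil is not built into DNA, was at 15.9, 14.7 and 16.0 CPM in Control and at 11.7, 10.2 and 10.3 CPM in AKG. The groups were well apart, with a log2 fold change of -0.53 ± 0.12 (SE; edgeR adjusted p = 0.00185). Scaled by total counts the value was -0.08 (adjusted p = 0.583).

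Rrm2, the subunit of ribonucleotide reductase whose level limits the enzyme in S phase, was at 11.8, 17.9 and 13.9 CPM in Control and at 16.9, 16.5 and 22.2 CPM in AKG. Control replicate 2 was above 2 of the AKG libraries, so the groups overlapped (log2 fold change 0.35, edgeR adjusted p = 0.0989). Without Control replicate 2 the value was 0.53 (adjusted p = 0.0204). Rrm1, the other subunit, was at 25.8, 31.4 and 23.6 CPM in Control and at 28.4, 27.2 and 28.6 CPM in AKG, and the same Control library was its highest.

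Tyms, which makes thymidylate from dUMP, was at 6.19, 7.14 and 6.77 CPM in Control and at 5.23, 5.09 and 5.44 CPM in AKG. These groups were apart, but the log2 fold change of -0.35 did not pass the test (edgeR adjusted p = 0.0830). Tk1, the salvage kinase for thymidine, ran from 6.21 to 7.33 CPM over all libraries. The ratio of Rrm2 to Dut was 0.944 ± 0.249 in Control and 1.73 ± 0.37 in AKG, and that of Rrm2 to Tyms was 2.15 ± 0.31 and 3.51 ± 0.49 (SD, n = 3), each with no overlap between the groups.

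**Figure D3:**
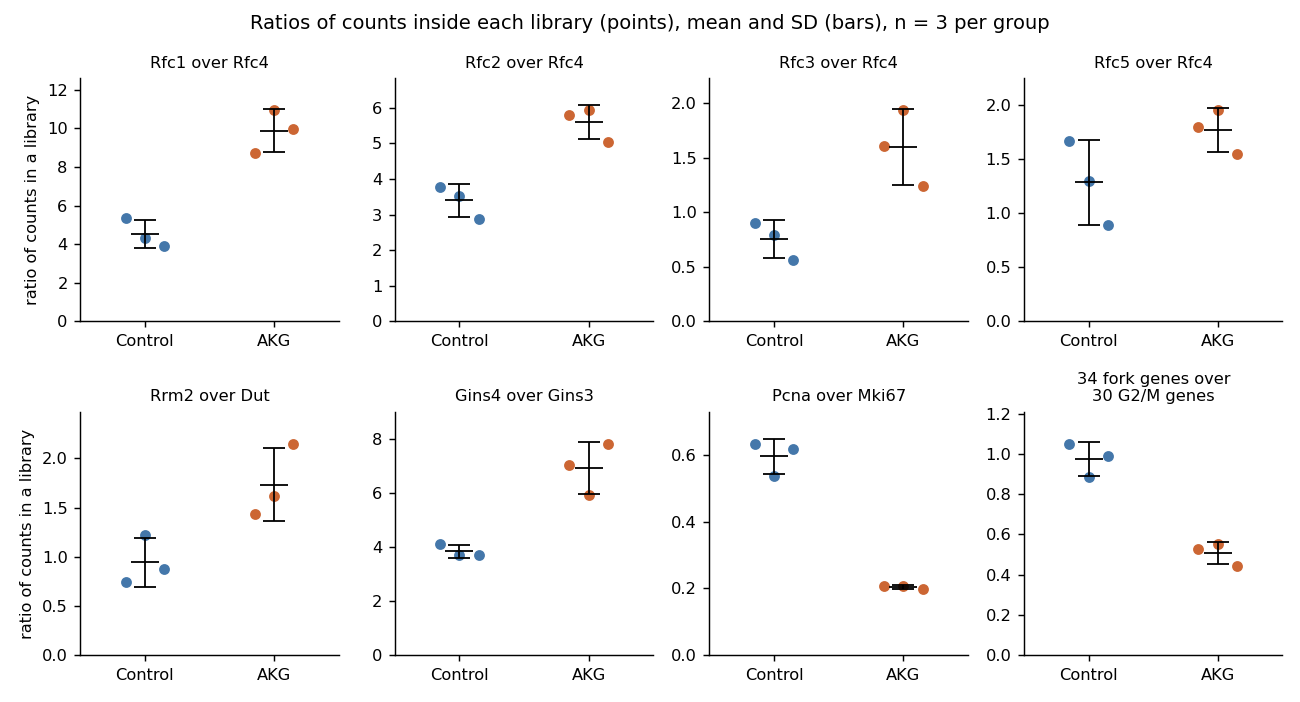
Ratios of counts within each library (points) with the mean and SD (bars, n = 3), Control beside AKG, for 7 pairs of genes and for the 34 genes summed over 30 genes of G2 and M phase, each panel from 0. Rfc1 over Rfc4 runs from 3.91 to 5.34 in Control and from 8.73 to 10.9 in AKG, with no scaling between libraries involved.

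Slbp, the protein that binds the stem-loop of histone mRNAs and so ties histone supply to DNA synthesis, was the chromatin gene that fell. It was at 21.6, 21.8 and 21.1 CPM in Control and at 12.3, 14.7 and 11.5 CPM in AKG. The Controls were almost equal and every AKG library was far below them, with a log2 fold change of -0.75 ± 0.11 (SE; edgeR adjusted p = 0.000104). Scaled by total counts the value was -0.31 and the call was kept (adjusted p = 0.0316).

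The other chromatin genes did not pass. Uhrf1, which guides maintenance methylation behind the fork, was at 6.67, 8.32 and 8.32 CPM in Control and at 6.07, 5.22 and 6.32 CPM in AKG. The groups were apart, and the log2 fold change of -0.40 missed the threshold (edgeR adjusted p = 0.0553) but passed it without Control replicate 1 (adjusted p = 0.0390). Chaf1a and Chaf1b, subunits of the factor that places new histones behind the fork, had log2 fold changes of 0.02 each, over 6.34 to 8.32 CPM and 2.58 to 4.29 CPM.

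None of the tested S phase entry and fork surveillance genes passed the test. E2f1, the transcription factor, was at 4.56, 4.47 and 5.37 CPM in Control and at 3.99, 4.35 and 3.11 CPM in AKG. The AKG libraries were below the Controls, with a log2 fold change of -0.33 (edgeR adjusted p = 0.190). The cyclins of S phase entry were at 1.23 to 2.05 CPM for Ccne1 and 2.50 to 4.10 CPM for Ccne2, with log2 fold changes of 0.03 and 0.25 and overlapping groups. Clspn, which carries the stalled-fork signal to the checkpoint kinase, was at 2.28 to 4.60 CPM, highest in Control replicate 2. Orc1, of the origin recognition complex, had 9, 11 and 3 counts in Control and 2, 6 and 6 in AKG.

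Of the 22 tested genes without a call, 13 had a log2 fold change within 0.2 of 0, and 7 had groups that did not overlap. In 6 of these 7 (Gins2, Pold1, Rfc4, Tyms, Uhrf1 and E2f1) the AKG libraries lay below the Controls on TMM scaling, and scaled by total counts the log2 fold change of each turned positive. Standard errors ran from 0.084 for Pcna to 0.315 for Gins1, so a small difference in the scarce genes was not detectable at this depth. Control replicate 2 was the highest of the 3 Controls for 22 of the 34 genes, with a median log2 deviation of 0.093 from the Control mean. The same rank was not counted over all genes. The CPM of the 34 genes summed to 354, 384 and 348 in Control and to 333, 340 and 345 in AKG, below each Control by a small margin. That order holds on TMM scaling only, with factors of 0.832 to 0.905 in Control and 1.12 to 1.22 in AKG. Without these factors each AKG sum lies above each Control.

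Levels can be compared between genes only per transcript length, for which the authors' FPKM were used. Pcna had the highest mean FPKM, 23.5 in Control and 20.5 in AKG, and Orc1 the lowest in Control (0.145). In Control, 5 genes were under 1 FPKM, 20 between 1 and 5 and 9 above 5. The median over the 34 genes was 2.68 FPKM in Control and 3.51 in AKG. FPKM carry the total-count scaling, and the log2 fold change in the authors' deposited table, a ratio of FPKM means, was positive for 26 of the 34 genes and negative for 8. The median of these fold changes was 0.24 over the 34 genes and 0.45 over all tested genes, so most tested genes were positive too. At a false discovery rate under 0.05 in the authors' deposited table, 2 were higher and 6 lower. Rfc2 (0.0552) and Gins3 (0.114) were not past that rate, and the shares of all genes past it were not counted. The scaling behind those rates is not stated in the sources used here and may differ from that of the fold changes beside them.

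**Figure D4:**
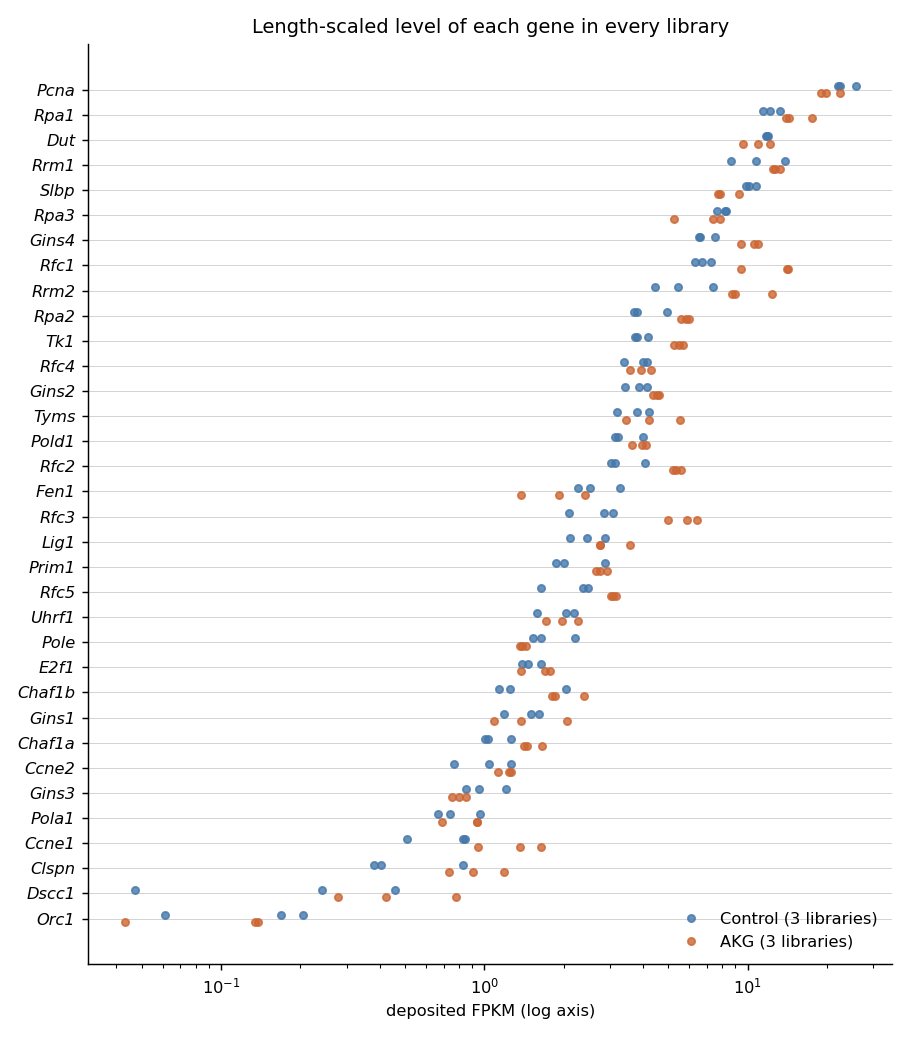
Deposited FPKM of the 34 genes (log axis), with a point for each Control and AKG library, ordered by the Control mean. Pcna is at the top with a Control mean of 23.5 FPKM and Orc1 at the bottom with 0.145.

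The deposited counts and FPKM together give a transcript length for each gene and library, since a count divided by its FPKM and by the library total is proportional to the length that the authors' estimate used. For 4 of 32 genes (12.5%) this implied length had non-overlapping groups with means at least 1.2 times apart, against 1.63% of all genes with values. Rfc1 was at 3.05, 3.31 and 3.05 kb in Control and at 4.46, 3.34 and 3.71 kb in AKG. The mean implied length of Rrm1 was 2.11 kb in Control and 2.57 kb in AKG, that of Ccne2 was 2.53 and 3.40 kb, and that of Clspn was 5.03 and 4.09 kb. In these 4 genes the fold change of counts and that of FPKM therefore differ by more than the library scaling, and which isoforms carried the reads was not tested.

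The same steps were followed in related genes, which were chosen with results of these data known. Of 43 other fork genes, 5 rose and 19 fell (11.6% and 44.2%, against 25% and 25.2% of all tested genes). Their median log2 fold change was -0.16. Scaled by total counts 17 rose and 6 fell, a fit in which 56.7% and 9.12% of all genes did. The Mcm ring moved in opposite directions: Mcm2 fell from 14.7 ± 1.7 to 5.51 ± 1.03 CPM (SD, n = 3), and Mcm3, Mcm4 and Mcm5 fell by 1.09, 0.73 and 1.08 on the log2 scale. Mcm7 rose from 16.3 ± 1.1 to 28.3 ± 1.2 CPM. Mcm6 fell by 0.37 (edgeR adjusted p = 0.0367), a value that was 0.07 on total counts. Cdc45 fell by 0.91, in the same helicase as the GINS genes, and Timeless, of the fork protection complex, by 0.85. The ratio of the 34 genes summed to Mcm2 to Mcm7 summed was 4.11 ± 0.14 in Control and 4.97 ± 0.18 in AKG.

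Of 28 other nucleotide genes, 6 rose and 8 fell (median -0.13). These are 21.4% and 28.6%, near the 25% and 25.2% of all tested genes. Scaled by total counts 14 rose and 4 fell, against 56.7% and 9.12% of all genes. Ctps2, a CTP synthase, rose by 0.98, while the kinases Guk1 and Nme1 fell by 0.81 and 1.01 and Mthfd1, a folate enzyme, fell by 0.95. Of 20 other S phase control genes, 5 rose and 4 fell (11 and 1 on total counts). On TMM these are 25% and 20%, again near the shares of all tested genes. Ccna2, the cyclin that acts in S phase and G2, rose by 0.84 and the kinase Wee1 by 0.58, whereas the repressor E2f6 fell by 0.72 and Tfdp1, the partner of E2F proteins, by 0.42 (0.02 on total counts). Of 9 other chromatin assembly genes, only Nasp, a histone chaperone, passed the test (11.1% lower, against 25.2% of all genes). Its log2 fold change was -0.29, a value that was 0.15 on total counts.

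Genes of G2 and M phase, which act after replication, were compared in the same libraries. Of 30 such genes 27 rose (90%, against 25% of all tested genes) and none fell, with a median log2 fold change of 0.83. Ccnb2, a mitotic cyclin, rose by 1.43, Cenpe by 1.21 and Kif20a by 1.17, and the proliferation marker Mki67 rose from 70.1 ± 9.4 to 130.1 ± 9.2 CPM (SD, n = 3). Top2a, which untangles replicated DNA, rose by 0.83. The 34 fork and nucleotide genes summed, divided by the 30 genes of G2 and M phase summed, gave 1.05, 0.885 and 0.993 in the Control libraries and 0.525, 0.552 and 0.445 in the AKG libraries. Each AKG library was thus well below each Control in a ratio that no scaling between libraries can move. Pcna over Mki67, both common proliferation markers, was 0.597 ± 0.053 in Control and 0.205 ± 0.006 in AKG. With 3 libraries against 3, an exact two-sided permutation test cannot go below p = 0.1, so no p is given for these ratios.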

How the data were processed

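RNA of 6 libraries (3 Control, 3 AKG) was measured. The authors deposited a table with an estimated count and an FPKM per gene and library, and with their log2 fold change, p-value and false discovery rate. The submitters' processing notes name HISAT2 2.1.0, RSEM 1.2.19 and DESeq2 1.20.0, and the sources used here give no build, annotation or strandedness of counting. Counts were whole numbers, and 30 rows without a symbol were left out of the tests and their library sizes. The total counts printed above, and the implied lengths in kb, include these rows. The share of genes with implied lengths apart was worked out without them. In R 4.3.3, edgeR 4.0.16 was used with filterByExpr (minimum count 10, total 15), TMM factors and its quasi-likelihood test of group, with Benjamini-Hochberg adjustment over all 13117 genes at 0.05. Standard errors were worked back from F and the log2 fold change. The scripts were tested on simulated data. Alternatives were other scalings and filters, DESeq2 1.42.0, limma 3.58.1 (voom, and log2 of the authors' deposited FPKM plus 1 or 0.1, for genes at FPKM 1 or more in 3 libraries), a replicate block and libraries left out. The 34 genes and all lists were chosen with earlier results of these data known. All 34 are accounted for; of each related list up to 4 genes with the smallest p past the threshold are named, plus Mcm2 to Mcm7, Cdc45, Top2a and Mki67. Sequences are RefSeq's on GRCm38.p6, and exon overlaps come from GENCODE M21. One site is not reported here.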

Additional observations from a re-analysis of the deposited data

How the results depend on the processing

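Scaling decided the counts of calls. Against 3 genes higher and 7 lower, total counts as the scaling gave 12 and 1 (all genes: 56.7% and 9.12%) with a median of 0.29. FPKM gave 9 and 1 at both pseudocounts (all genes: 58.1% higher, 9.22% and 9.21% lower) and with any FPKM above 0 (40.7% and 6.73%), with medians of 0.20 (pseudocount 1), 0.24 (pseudocount 0.1) and 0.20 (any FPKM above 0). The median of the 32 tested genes minus that of all genes was -0.15 both on TMM and on total counts, and it was -0.0016 over all 34 with any FPKM above 0. AKG replicate 2 alone, assumed to vary like the Controls, gave 2 and 4 (20.1% and 20.7%). Leaving out each library in turn gave 1 (without Control replicate 3) to 4 (without Control replicate 2) higher, 6 to 7 lower and a median from -0.21 (without Control replicate 1) to -0.081 (without AKG replicate 3). Among named genes called in either of the fits compared, those that changed sign on total counts, FPKM plus 1 and FPKM plus 0.1 were Rpa1 (0.34, 0.29 and 0.31), Tfdp1 (0.021, 0.016 and 0.017), Nasp (0.15, 0.12 and 0.13) and Mcm6 (0.068, 0.081 and 0.095). With any FPKM above 0 they were 0.016 for Tfdp1, 0.12 for Nasp and 0.081 for Mcm6. Genes called in neither fit, such as Gins2 and Tyms, also changed sign on total counts. Other settings (DESeq2 size factors, DESeq2, limma-voom, looser and stricter filters) gave 3 higher and 6 to 7 lower. Libraries with the same replicate number had correlations of 0.18, -0.06 and 0.06. These values show no clear pairing by number, but with 3 libraries per group they cannot exclude one. The replicate block gave 3 higher, 7 lower and a median of -0.14. Low counts limit Gins1, Gins3, Ccne1, Dscc1 and Orc1.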
